A study of Mus musculus with 13 samples.

Results

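Pre-iPSCs with a knockout of Kdm3b and wild-type pre-iPSCs were compared in their expression change over 2 days of a treatment that promotes reprogramming. The quantity described here is a difference of changes: the change from day 0 to day 2 in Kdm3b knockout (KO) cells minus the change over the same days in wild-type (WT) cells. It rests on 8 of the 13 libraries of the series, 2 for each of the 4 groups WT day 0, WT day 2, KO day 0 and KO day 2, with 1 library lettered A and 1 lettered B in every group. A gene is called higher where the KO change exceeded the WT change, because it rose more or fell less in KO, and lower in the opposite case. Of 20325 genes in the files, 13277 had enough counts to be tested, and 1336 of them were called, 820 higher and 516 lower.

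The cells were mouse pre-iPSCs, intermediates that had been derived from embryonic fibroblasts and had stalled before reaching pluripotency. All groups were grown in serum-containing ESC medium with LIF. Day 2 cells had received AA+2i, which is ascorbic acid at 50 µg/mL with CHIR-99021, an inhibitor of GSK3, and PD-0325901, an inhibitor of MEK. The day 0 libraries are titled DMSO although their treatment label also reads AA+2i, and they are taken here as the start of the course. The labels state neither how the KO was made nor how many lines or clones it represents, nor do they say whether A and B were separate cultures, so that p-values may measure technical spread only. The 8 libraries held between 14891294 and 26430050 expected counts.

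KDM3B removes methyl groups from lysine 9 of histone H3, a mark that accompanies silent chromatin and that holds back many pluripotency genes in stalled reprogramming intermediates. Inhibition of GSK3 stabilises beta-catenin, which then activates genes with TCF and LEF factors, and inhibition of MEK lowers ERK signalling and the feedback inhibitors that ERK induces. Ascorbic acid is known to support the activity of iron-dependent dioxygenases, a family that includes the JmjC histone demethylases and the TET enzymes. The interaction of genotype and treatment asks which RNA changes over the treatment differ between the KO and the WT cells.

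Kdm3b itself was measured at 181 and 248 CPM in WT at day 0 and at 149.8 and 165 CPM in WT at day 2. CPM are counts scaled to the library total multiplied by its TMM factor, given for letter A and then letter B. The KO libraries held 43.8 and 64.9 CPM at day 0 and 18.9 and 28.8 CPM at day 2. All 4 KO libraries lay below all 4 WT libraries, in the direction of their labels, but reads remained in KO. The labels do not say which exons were removed. Kdm3b fell in both genotypes, and its own difference of changes was -0.77 on the log2 scale (SE 0.17), with an FDR (false discovery rate, adjusted by Benjamini and Hochberg's method) of 0.0102 in edgeR's quasi-likelihood test (lost without KO day 0 B). Its relatives Kdm3a and Jmjd1c, which encode the other KDM3 family members, had differences of -0.24 (SE 0.16) and -0.16 (SE 0.18), and neither was called.

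The 1336 calls are 10.1% of the genes tested at an FDR under 0.05, with 6.18% higher and 3.89% lower. Over all tested genes the median difference was 0.02. Among the called genes the median absolute difference was 1.09, 735 exceeded 1 and 266 exceeded 2 on the log2 scale. For comparison, the treatment alone changed 4518 genes in WT (34%, with 2276 up and 2242 down) and 4444 in KO (33.5%, with 2312 up and 2132 down). Letters A and B pair the libraries and entered the fit as a block, with 9325 of the tested genes (70.2%) differing between the letters, and without that block 0 genes were called for the interaction, with 708 at an unadjusted p under 0.05 against 2903 in the blocked fit. Leaving out 1 library lowered the 1336 calls by over 1.5 times in 3 cases, to 796 without WT day 2 B and to 818 without KO day 0 A or without KO day 0 B. A "rose" or "fell" below refers to the blocked fit. A called interaction named below was also called in all 8 fits that each left out 1 library unless the text says where it was lost.

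**Figure D1:**
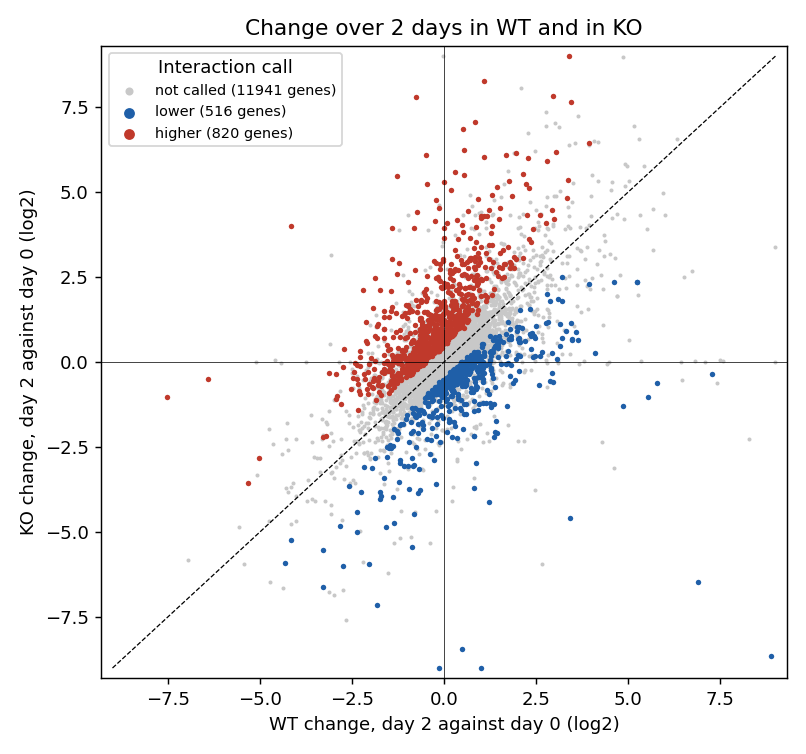
Each point is 1 of the 13277 tested genes, with its fitted log2 change from day 0 to day 2 in WT on the x axis and in KO on the y axis. Values beyond 9 in either direction are drawn at 9. The dashed line marks equal change. The 820 higher genes (red) lie above it and the 516 lower genes (blue) below it.

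The difference of changes can be formed within each letter, from 4 libraries at a time. All 1336 called genes had the same sign in A and in B, which the choice of genes favours, since they were called on these same libraries. Across the 13277 genes the differences in A and B had a Pearson's r of 0.679 and a Spearman's rho of 0.563, given as a description since genes are not independent replicates.

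**Figure D2:**
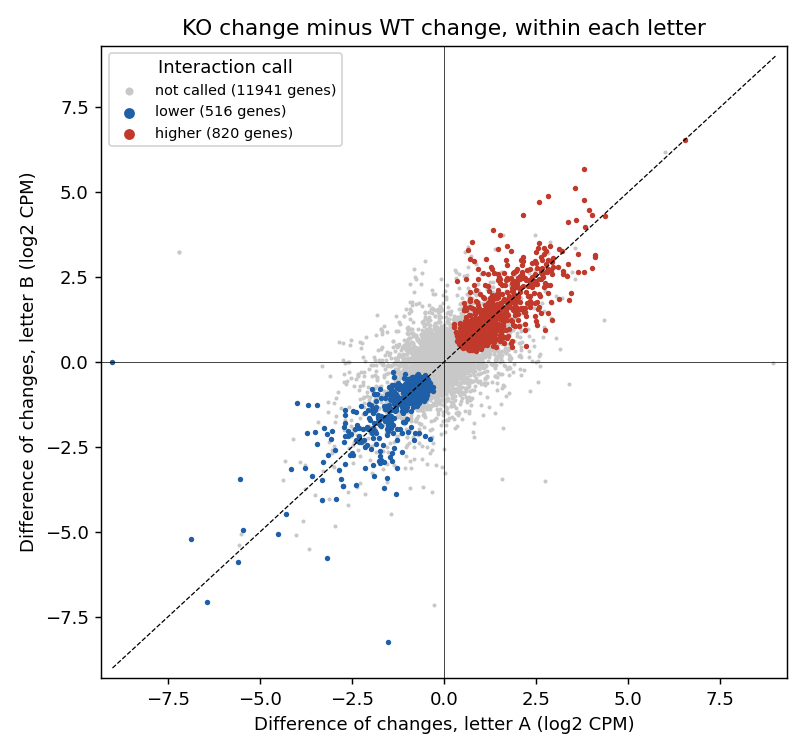
Each point is 1 tested gene, with its KO change minus its WT change (log2 CPM) computed from the 4 A libraries on the x axis and from the 4 B libraries on the y axis. The dashed line marks equality, and values beyond 9 are drawn at 9. The 820 higher genes (red) lie in the upper right quadrant and the 516 lower genes (blue) in the lower left, as the calls were made on these same values.

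The called genes divide by which genotype moved. Of the 820 higher genes, 297 rose in KO with no call in WT, 214 fell in WT with no call in KO, 163 rose in both and rose further in KO, 91 fell in WT and rose in KO, 52 fell in both and fell less in KO, and 3 were called in neither genotype. Among the 516 lower genes, 182 rose in WT with no call in KO, 146 fell in KO with no call in WT, 89 fell in both and fell further in KO, 50 rose in both, 44 rose in WT and fell in KO, and 5 were called in neither.

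Lower genes whose induction was seen in WT and not in KO included the imprinted growth factor gene Igf2. Its level was 5.63 and 6.34 CPM in WT at day 0 and 38.4 and 49.8 CPM at day 2, against 10.2 and 13.1 and then 6.79 and 9.06 CPM in KO. WT libraries at day 2 stood above all other libraries, and the KO libraries at day 2 were below those at day 0. Igf2 rose by 2.87 log2 in WT and fell in KO (log2 -0.56), a difference of -3.42 (SE 0.18, FDR 6.80e-08). Lgals9, which encodes the sugar-binding protein galectin-9, went from 10.6 and 9.63 to 30.9 and 21.5 CPM in WT and from 7.15 and 5.56 to 1.43 and 1.35 CPM in KO. The direction of the Lgals9 change was opposite in the 2 genotypes in both letters, with a difference of -3.55 (SE 0.25). Tdh, the threonine dehydrogenase on which mouse ESCs rely for one-carbon metabolism, also moved in opposite directions, from 141 and 114 to 218 and 218 CPM in WT and from 162 and 148 to 87.0 and 82.1 CPM in KO (difference -1.65, SE 0.16). Chst1, a carbohydrate sulfotransferase gene, rose from 3.13 and 3.78 to 22.5 and 31.5 CPM in WT, and in KO it went from 6.14 and 10.8 to 5.57 and 5.40 CPM, so that its difference was -3.53 (SE 0.26). The phosphatidate phosphatase gene Lpin1 completes the 5 opposite movers named by the rule, with a rise from 29.8 and 47.7 to 57.2 and 76.4 CPM in WT, a fall from 61.0 and 92.2 to 43.1 and 68.3 CPM in KO and a difference of -1.27 (SE 0.15).

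Alox15, a lipoxygenase gene, rose from 2.34 and 2.41 to 19.8 and 20.2 CPM in WT and lay at 0.288 and 0.295 and then 0.255 and 0.385 CPM in KO (difference -2.97, SE 0.55). The 4 KO libraries were all far under the WT day 0 level, and those of day 0 and day 2 overlapped. Alpl, the tissue-nonspecific alkaline phosphatase by whose activity pluripotent colonies are stained, rose from 7.78 and 12.6 to 38.7 and 67.8 CPM in WT, with 4.75 and 12.5 and then 6.54 and 15.7 CPM in KO. Its WT and KO libraries began in the same range, and at day 2 both WT libraries exceeded both KO libraries (difference -2.00, SE 0.22). Mylpf, a muscle myosin light chain gene, rose in both genotypes, from 8.69 and 6.29 to 108 and 61.0 CPM in WT and from 3.26 and 2.81 to 6.33 and 3.404 CPM in KO, with a smaller rise in KO (difference -2.81, SE 0.24). Gpnmb, a transmembrane glycoprotein gene, had a difference of the same kind, -2.39 (SE 0.24), and so had Lhfpl2, -2.32 (SE 0.18), each rising in both genotypes. Carbonic anhydrase 2 (Car2) rose in WT from 28.7 and 15.7 to 79.8 and 49.3 CPM, and its KO libraries lay at 6.76 and 5.22 and 7.15 and 4.50 CPM (difference -1.61, SE 0.20).

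A further set of lower genes fell in KO and less, or with no call, in WT. Ypel2 went from 67.6 and 84.4 to 6.18 and 7.001 CPM in KO and from 31.3 and 44.0 to 13.6 and 18.3 CPM in WT, so that KO started above WT and ended below it (difference -2.29, SE 0.17). Dhrs3, whose product reduces retinaldehyde, fell in KO from 32.3 and 48.8 to 4.75 and 6.17 CPM, close to the WT levels of 6.39 and 6.09 at day 0 and 5.28 and 5.13 CPM at day 2 (difference -2.61, SE 0.26). Olfm1, a secreted olfactomedin gene, fell from 65.6 and 67.3 to 14.6 and 12.5 CPM in KO and from 56.6 and 50.4 to 46.4 and 38.3 CPM in WT (difference -1.96, SE 0.16). Igfbp3, which binds insulin-like growth factors, fell in both genotypes, from 95.4 and 122 to 37.5 and 58.5 CPM in WT and from 190.0 and 293 to 25.9 and 39.2 CPM in KO (difference -1.68, SE 0.16). Porcn, the acyltransferase that Wnt ligands need for secretion, stood at 174 and 216 and then 142 and 172 CPM in WT with no call, and fell from 127 and 208 to 34.4 and 51.5 CPM in KO (difference -1.64, SE 0.18). Socs2, a cytokine feedback inhibitor gene, had the same form, with a KO fall from 69.7 and 63.4 to 23.8 and 19.7 CPM and WT values between 71.4 and 87.1 CPM (difference -1.42, SE 0.15).

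Neighbouring S100 genes on chromosome 3, which encode small calcium-binding proteins, were lower together. S100a4, also used as a fibroblast marker, fell from 104 and 58.1 to 8.76 and 7.24 CPM in WT and from 68.8 and 35.7 to 1.69 and 0.514 CPM in KO. S100a3 fell from 57.3 and 39.0 to 8.01 and 6.27 CPM in WT and from 37.4 and 23.6 to 0.664 and 0.257 CPM in KO. Both genotypes started within 2-fold of each other, and the KO libraries ended lowest. Differences of changes were -2.23 (SE 0.30) for S100a4, -3.25 (SE 0.28) for S100a3, -2.00 (SE 0.21) for S100a16 and -0.83 (SE 0.17) for S100a6 (lost without KO day 0 A). The epithelial keratin gene Krt19, on another chromosome, fell from 75.9 and 59.6 to 23.9 and 19.999 CPM in WT and from 17.7 and 12.1 to 1.53 and 1.22 CPM in KO (difference -1.80, SE 0.22).

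Among the higher genes, several stood below WT in KO at day 0 and approached or passed the WT day 0 level by day 2. Armcx2, an X-linked armadillo-repeat gene, lay at 0.720 and 1.03 CPM in KO at day 0 and 15.7 and 17.7 CPM at day 2, while WT went from 16.1 and 15.97 to 30.2 and 34.2 CPM. It rose in both genotypes, with a difference of 3.24 (SE 0.23, FDR 1.07e-06), and the KO libraries at day 2 reached the WT level of day 0. Mapt, which encodes the microtubule-binding protein tau, rose from 7.004 and 9.06 to 49.9 and 76.1 CPM in KO and from 33.6 and 40.3 to 52.3 and 60.7 CPM in WT (difference 2.34, SE 0.17). Dmd, the dystrophin gene, rose from 10.2 and 9.60 to 61.9 and 48.3 CPM in KO, whereas WT held 47.9 and 41.7 and 55.1 and 45.3 CPM with no call (difference 2.31, SE 0.15). Aoah, an acyloxyacyl hydrolase that detoxifies bacterial lipopolysaccharide, behaved alike, from 15.6 and 13.5 to 108 and 74.8 CPM in KO and 75.0 and 50.2 to 78.5 and 60.0 CPM in WT (difference 2.47, SE 0.16). Rasgrp2, an exchange factor for Rap GTPases, went from 19.4 and 17.6 to 63.6 and 54.5 CPM in KO and the 4 WT libraries spanned 63.5 to 77.2 CPM (difference 1.71, SE 0.14).

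Other higher genes stood above WT in KO at day 2. The kinase gene Pak3 lay between 12.6 and 17.6 CPM in all WT libraries and in KO at day 0, and rose to 66.9 and 59.8 CPM in KO at day 2 (difference 2.02, SE 0.18). Necab1, a calcium-binding protein gene, rose from 8.11 and 7.88 to 67.5 and 66.5 CPM in KO and from 10.8 and 13.3 to 20.8 and 18.6 CPM in WT (difference 2.35, SE 0.18). Ptn, the heparin-binding growth factor pleiotrophin, went from 0.240 and 0.443 to 17.9 and 27.0 CPM in KO and from 2.78 and 1.87 to 12.3 and 10.9 CPM in WT (difference 3.72, SE 0.46). Atf5, a stress-responsive transcription factor gene, moved in opposite directions, rising from 68.2 and 51.6 to 159 and 98.4 CPM in KO and falling from 89.8 and 69.8 to 53.2 and 39.4 CPM in WT (difference 1.87, SE 0.15). Pcx, pyruvate carboxylase, did the same, with a KO rise from 30.2 and 62.0 to 75.4 and 188 CPM and a WT fall from 31.7 and 58.5 to 21.4 and 40.3 CPM (difference 2.02, SE 0.17).

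The largest differences by size were found at low levels, where a KO group near 0 counts makes the fold uncertain. Pex5l, related to the peroxisomal import receptor, lay at 0 and 0.0492 CPM in KO at day 0 and 4.49 and 9.38 CPM at day 2, and fell in WT from 4.96 and 6.78 to 2.49 and 4.69 CPM (fitted difference 8.56). Ror1, a receptor for Wnt5a, rose from 0.240 and 0.295 to 1.79 and 7.26 CPM in KO and fell from 6.59 and 15.1 to 2.59 and 5.53 CPM in WT (difference 5.38, SE 0.43). Rgs8, a regulator of G-protein signalling, rose from 1.103 and 1.18 to 9.24 and 9.63 CPM in KO and fell from 6.07 and 7.82 to 2.24 and 2.98 CPM in WT (difference 4.45, SE 0.28). Flnc, encoding filamin C, went from 0.144 and 0.197 to 1.58 and 6.29 CPM in KO and from 4.40 and 10.6 to 2.59 and 6.58 CPM in WT (difference 5.14, SE 0.44). The axon guidance receptor gene Robo2 and the protocadherin gene Fat4 had differences of 4.67 (SE 0.52) and 4.38 (SE 0.51), and each rose in KO with no call in WT. Altogether 55 of the 1336 called genes had a group with 3 counts or fewer, and fitted sizes of such genes depend on the prior count.

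**Figure D3:**
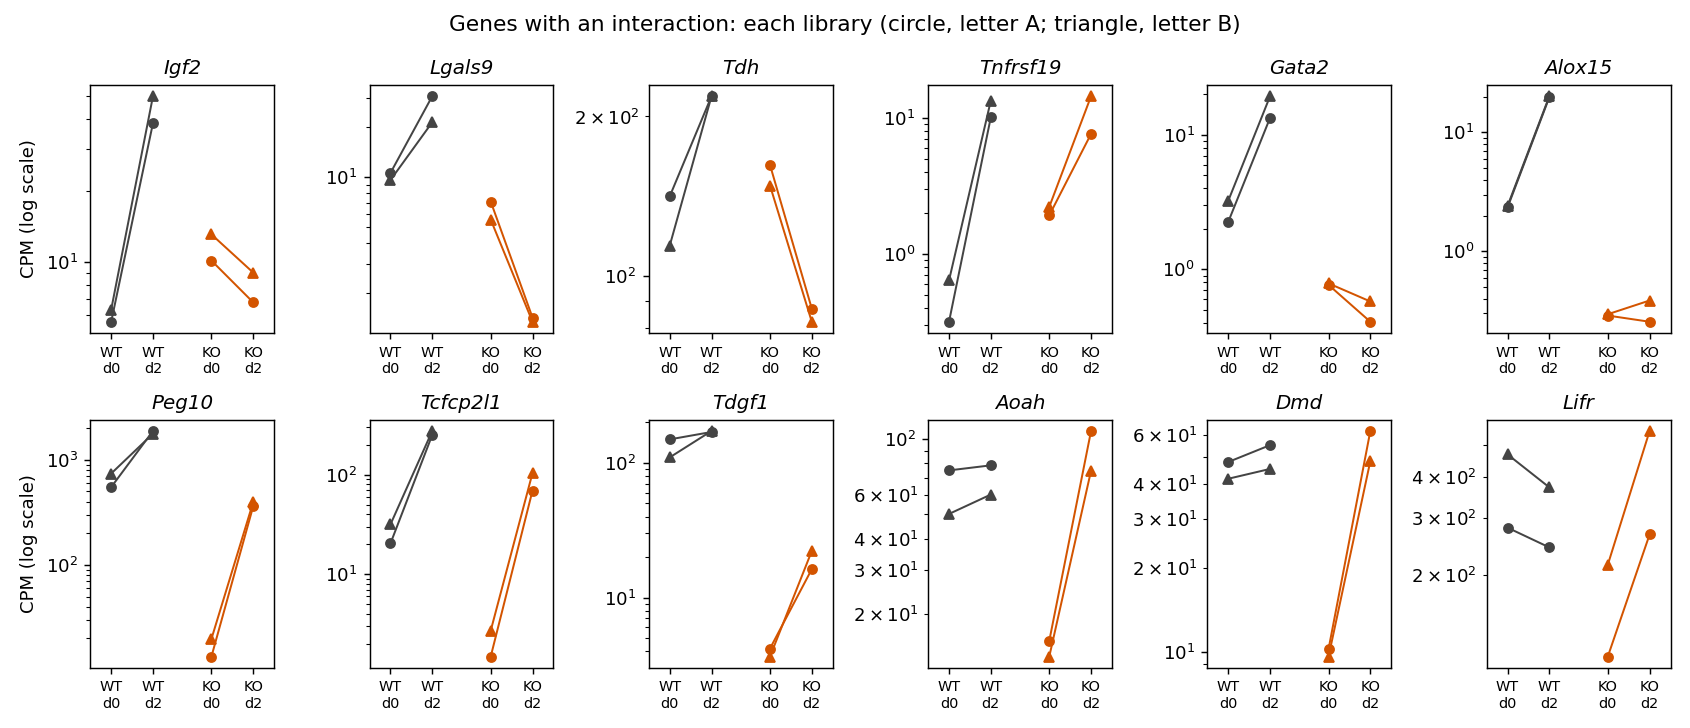
Levels of 12 genes in each of the 8 libraries, in CPM on a log axis whose range differs between panels, with day 0 (d0) and day 2 (d2) of the same letter joined (circles, A; triangles, B; grey, WT; orange, KO). The upper row shows lower genes and the lower row higher genes. Igf2 rises in both WT letters and falls in both KO letters, and Aoah and Dmd rise in both KO letters while the WT lines stay within 1.5-fold.

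Genes switched on or off in 1 genotype with no reads at all in the other escape the interaction test, because no change can be estimated where all libraries hold 0 counts. There were 32 tested genes at 0 counts in all 4 KO libraries, of which 27 changed in WT, and 2 tested genes at 0 in all 4 WT libraries, of which 1 changed in KO. A gene of this kind passes the filter on low counts through the other genotype alone, where it must be high in some libraries, so these counts are a description (34% of all tested genes changed in WT). Sp5, a transcription factor gene that beta-catenin activates directly, had the largest day 2 count among the 27. It went from 3 counts over both WT day 0 libraries to 123 and 147 counts in the WT day 2 libraries, with 0 counts in KO, and at day 2 was at least 73.8-fold higher in WT than in KO, with KO set at a floor of 3 counts over the group. Zc3h12d went from 0 to 181 counts over the WT libraries (at least 49.4-fold at day 2), Gpr83, a G-protein-coupled receptor gene, from 3 to 131 counts (at least 35.8-fold), and the ligand gene Wnt16 from 0 to 51 counts (at least 13.9-fold). Pluripotency-associated Utf1 rose from 21 to 50 counts and Dppa1 from 0 to 35 counts in WT, both with 0 in KO. The epidermal growth factor family gene Ereg fell in WT from 110 to 32 counts and the uroplakin gene Upk1b from 216 to 15 counts, also with 0 in KO. In the reverse direction, Rex2 had 0 counts in the 4 WT libraries of day 0 and day 2 and in KO at day 0. The KO libraries at day 2 held 120 and 109 counts (at least 93.1-fold higher than WT at day 2). Rex2 was not confined to KO later. At day 10, scaled over all 13 libraries, it stood at 15.8 and 44.5 CPM in WT and at 0 and 9.71 CPM in KO. The floors cover counting error only.

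The 2 inhibitors act on pathways with known target genes, and these gave different pictures. Of the 20 ERK feedback and target genes tested, 16 fell in WT and 16 fell in KO, and 1 was called higher and 0 lower for the interaction. Over all tested genes, 16.9% fell in WT and 16.1% in KO, and 6.18% were higher and 3.89% lower. Dusp6, the ERK-specific phosphatase gene that ERK itself induces, fell from 92.3 and 88.5 to 11.3 and 10.6 CPM in WT and from 107 and 79.4 to 10.6 and 9.12 CPM in KO, with a difference of -0.19 (SE 0.17). Both genotypes thus passed through the same range on both days. The exception was Spred1, an inhibitor of Ras signalling, which fell from 78.0 and 92.7 to 27.0 and 25.7 CPM in WT and from 70.5 and 82.6 to 48.8 and 46.4 CPM in KO (difference 1.01, SE 0.16, FDR 7.05e-04). The list's median difference was -0.04, beside 0.02 over all genes.

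Of the 17 Wnt target genes tested, 5 were lower and 0 higher, and 9 rose in WT against 4 in KO. Over all tested genes, 3.89% were lower and 6.18% higher, and 17.1% rose in WT and 17.4% in KO. The list's median difference was -0.37 on the log2 scale. Tnfrsf19, a TNF receptor family member activated by beta-catenin, rose from 0.317 and 0.639 to 10.1 and 13.3 CPM in WT and from 1.92 and 2.22 to 7.61 and 14.4 CPM in KO. The day 2 levels overlapped between genotypes, and the smaller KO change (difference -2.26, SE 0.37) went with a higher KO start. Notum, a secreted enzyme that inactivates Wnt ligands, rose from 31.4 and 47.3 to 153 and 247 CPM in WT and from 8.88 and 18.1 to 26.8 and 53.7 CPM in KO (difference -0.76, SE 0.17; lost without WT day 0 B or KO day 0 B). Lef1, one of the DNA-binding partners of beta-catenin, rose in WT from 1.43 and 1.23 to 2.74 and 2.41 CPM and fell in KO from 3.45 and 3.99 to 1.63 and 1.54 CPM (difference -2.16, SE 0.34). Apcdd1, a membrane inhibitor of Wnt signalling, fell in KO from 120.4 and 186 to 65.2 and 84.1 CPM with WT between 112 and 145 CPM (difference -0.97, SE 0.16). Dkk1, a secreted Wnt antagonist, was the fifth, at levels of 1.05 CPM or less in all 8 libraries and 0 in both KO libraries of day 2 (lost without WT day 2 A, KO day 0 B or KO day 2 B). Axin2, the negative-feedback gene most often read as a reporter of this pathway, was not called: it rose from 0.238 and 0.492 to 12.1 and 16.1 CPM in WT and from 0 and 0.0492 to 2.25 and 3.53 CPM in KO. With 1 count over both KO libraries of day 0, the sign of its difference turns with the prior count: the fitted value was 1.28 (SE 0.93), and the values formed within letters were -0.60 in A and -0.15 in B. Without KO day 0 B the 5 lower members became 3.

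The promoters of Sp5 and Dkk1 are shown because they alone, among the 10 Wnt list genes found in the RefSeq promoter table (GRCm38.p6), hold the TCF/LEF motif. The windows run from 250 bases before to 50 after the start site, and capitals mark the motif, searched as CTTTGAT or CTTTGAA on both strands. The Sp5 window is chr2:70474673-70474972 on the plus strand and the Dkk1 window is chr19:30549447-30549746 on the minus strand, each printed in the direction of transcription.
Sp5: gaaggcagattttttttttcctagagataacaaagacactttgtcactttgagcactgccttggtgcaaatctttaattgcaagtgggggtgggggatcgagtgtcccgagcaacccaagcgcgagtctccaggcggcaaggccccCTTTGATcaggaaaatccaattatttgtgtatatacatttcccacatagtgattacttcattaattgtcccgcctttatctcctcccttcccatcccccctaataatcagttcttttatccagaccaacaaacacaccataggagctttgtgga
Dkk1: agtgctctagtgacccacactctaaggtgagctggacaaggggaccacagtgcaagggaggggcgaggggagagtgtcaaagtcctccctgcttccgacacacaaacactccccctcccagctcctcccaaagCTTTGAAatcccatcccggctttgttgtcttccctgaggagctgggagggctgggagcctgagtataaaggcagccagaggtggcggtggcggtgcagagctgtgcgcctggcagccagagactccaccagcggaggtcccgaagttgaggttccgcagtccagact
Of the 10589 tested genes with a promoter in that table, 625 (5.90%) hold the motif, as do 8.77% of all 27025 promoters in it. Among higher genes 5.95% held it and among lower genes 3.88%. A match is a description and not a binding site, and no match says only that these letters are not in the window.

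Pluripotency genes split in both directions. Of 18 naive pluripotency genes tested, 3 were higher and 5 lower (44.4% called, beside 10.1% of all tested genes). Tcfcp2l1, a transcription factor of the naive state, rose from 20.4 and 31.7 to 252 and 276 CPM in WT and from 1.49 and 2.71 to 69.3 and 104 CPM in KO. KO started lowest and also ended below WT, while its rise was larger by 1.99 log2 (SE 0.23). Klf5, a Kruppel-like factor that sustains ESC self-renewal, rose in KO from 5.42 and 6.25 to 20.9 and 17.0 CPM, with WT at 26.9 and 36.2 and then 43.1 and 36.1 CPM (difference 1.37, SE 0.23). Gbx2, a target of LIF signalling, fell in WT from 6.15 and 6.05 to 2.94 and 2.24 CPM and stood at 2.21 and 1.43 and then 2.50 and 2.38 CPM in KO (difference 1.66, SE 0.32). In the other direction, Tbx3, a T-box factor of the naive state, rose from 0.238 and 0.492 to 4.18 and 4.74 CPM in WT and lay at 0.336 and 0.591 and then 0.613 and 0.835 CPM in KO (difference -2.99, SE 0.57; lost without KO day 0 B). Fgf4, the growth factor gene that drives exit from the naive state, fell in both, from 96.5 and 105 to 50.4 and 57.5 CPM in WT and from 102 and 143 to 31.0 and 41.0 CPM in KO (difference -0.86, SE 0.16). The remaining lower members were Zfp42 (-1.42; called in 1 of the 8 fits that left out 1 library), Dppa2 (-2.42; called in 3 of the 8 fits that left out 1 library) and Dppa4 (-2.67; called in 3 of the 8 fits that left out 1 library), each at under 7 CPM in every library. With 1 library left out the count of lower members lay between 1 (without KO day 0 B) and 5.

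Nanog, the core naive factor, rose in both genotypes, from 2.90 and 1.33 to 18.5 and 13.2 CPM in WT and from 0.720 and 0.640 to 6.18 and 4.69 CPM in KO (difference 0.08, SE 0.33, not called). Pou5f1 fell in both, with a difference of 0.09 (SE 0.21, not called). The files do not separate endogenous transcripts from any introduced copies of Pou5f1, Sox2, Klf4 or Myc. Of 19 general pluripotency genes tested, 3 were higher and 0 lower (15.8% called, beside 10.1% of all tested genes). Tdgf1, the Nodal co-receptor, rose from 4.17 and 3.64 to 16.2 and 22.2 CPM in KO and from 149.7 and 110.1 to 170.0 and 173 CPM in WT, so that both KO days lay below both WT days (difference 1.88, SE 0.25). Gdf3, a TGF-beta family ligand, rose from 1.06 and 1.58 to 19.9 and 39.7 CPM in KO and from 5.44 and 7.23 to 40.6 and 56.8 CPM in WT, and at day 2 both KO libraries lay below both WT libraries (difference 1.52, SE 0.26). Sox2 fell in WT with no call in KO (difference 0.71, SE 0.18; lost without WT day 0 B, WT day 2 B or KO day 0 A).

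LIF and STAT3 genes, of which 12 were tested, had 3 higher and 0 lower, Gbx2 being counted here too. The called share was 25%, beside 10.1% of all tested genes. Lifr, the LIF receptor subunit, stood at 113 and 216 CPM in KO at day 0 and 267 and 554 CPM at day 2, against 279.9 and 469 and then 244 and 372 CPM in WT. The 2 letters differed by over 1.5-fold in each group, yet within each letter KO began below WT and ended above it (difference 1.57, SE 0.18, FDR 5.72e-05). Socs3, the feedback inhibitor that STAT3 induces, went from 126 and 152 to 215 and 224 CPM in KO and from 199.6 and 244 to 222 and 235 CPM in WT (difference 0.61, SE 0.16; called in 2 of the 8 fits that left out 1 library). The transducer Il6st and Stat3 itself were not called, with differences of 0.51 (SE 0.21) and 0.39 (SE 0.15). The list's median difference was 0.26.

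**Figure D4:**
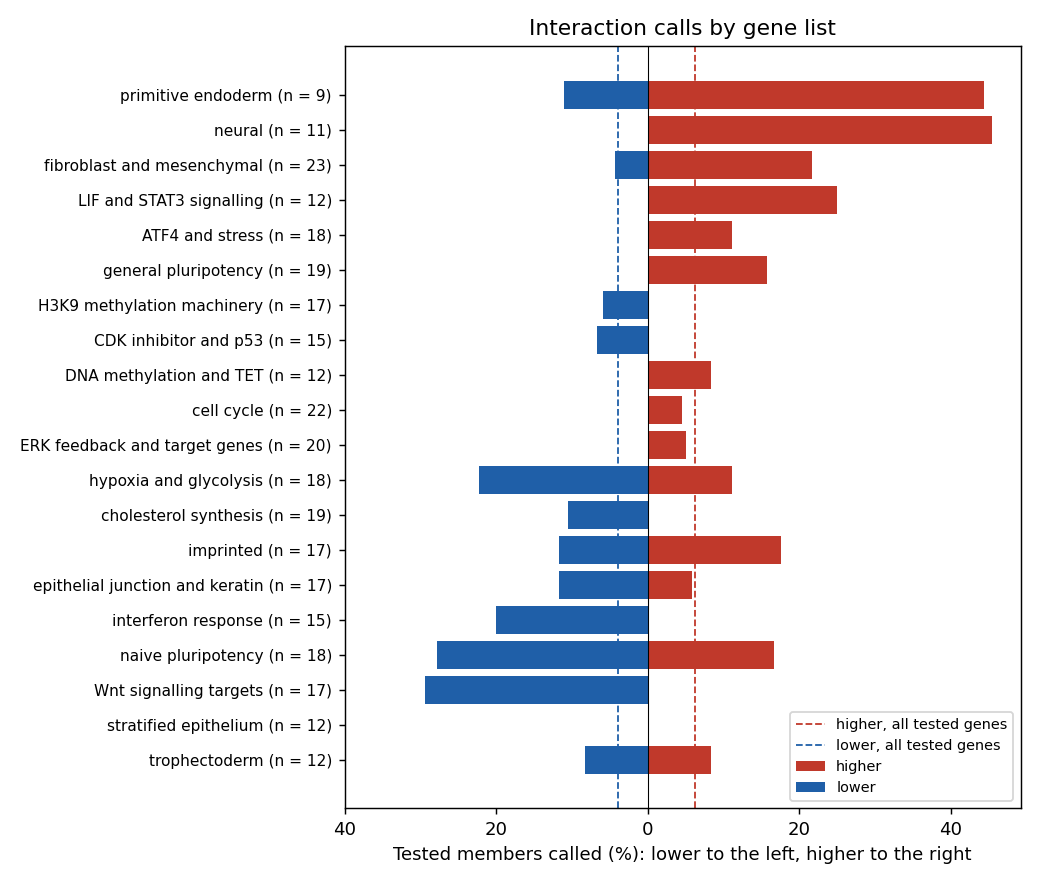
Share of the tested members of each gene list called lower (blue bars, to the left) or higher (red bars, to the right) for the interaction, with the number tested in brackets, ordered by the list's median difference. The dashed lines mark the shares over all tested genes, 6.18% higher and 3.89% lower. Several lists have lower calls only or higher calls only, among them Wnt signalling targets (lower) and neural genes (higher).

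Basement membrane genes of the primitive endoderm list were higher. That list had 4 higher and 1 lower among 9 tested (55.6% called, beside 10.1% of all tested genes), with a median difference of 1.46. Its lineage factors, however, stood low in these cells: Gata4 and Gata6 lay at 1.67 CPM or less in every library and neither was called. Col4a1 and Col4a2, which encode the 2 chains of the main type IV collagen, are transcribed in opposite directions from a shared promoter. Col4a1 stood at 24.99 and 65.7 CPM in KO at day 0 and 59.4 and 201 CPM at day 2, against 28.5 and 69.9 and 29.0 and 68.2 CPM in WT, and Col4a2 at 25.5 and 97.3 and then 65.5 and 248 CPM in KO against 24.2 and 76.0 and 23.7 and 67.0 CPM in WT. In each letter 3 groups were close together and KO at day 2 stood above them. Both genes had a difference of 1.46 (SE 0.18 for Col4a1 and 0.17 for Col4a2). Lama1, a laminin chain of the same basement membranes, fell in WT from 8.02 and 22.6 to 3.63 and 8.64 CPM and lay at 3.07 and 7.68 and then 3.17 and 9.38 CPM in KO (difference 1.47, SE 0.23). The endocytic receptor gene Cubn, at 1.73 CPM or less, was the fourth higher member (called in 3 of the 8 fits that left out 1 library), and Dab2, an endocytic adaptor gene, was the lower one (-2.07, SE 0.46; lost without WT day 2 A).

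The shared promoter is shown because Col4a1 and Col4a2 were the only called pair of its kind. Among 620 pairs of tested genes with start sites on opposite strands within 500 bases, 29 had at least 1 called member and 1 had both. Over all tested genes 10.1% were called, a larger share than that of pairs with a called member. The window is chr8:11312555-11312854 of GRCm38.p6 (RefSeq), plus strand, read in the direction of Col4a2. Capitals mark the 22 bases from the start site of Col4a2 at 11312805 to that of Col4a1 at 11312826.
Col4a2 and Col4a1: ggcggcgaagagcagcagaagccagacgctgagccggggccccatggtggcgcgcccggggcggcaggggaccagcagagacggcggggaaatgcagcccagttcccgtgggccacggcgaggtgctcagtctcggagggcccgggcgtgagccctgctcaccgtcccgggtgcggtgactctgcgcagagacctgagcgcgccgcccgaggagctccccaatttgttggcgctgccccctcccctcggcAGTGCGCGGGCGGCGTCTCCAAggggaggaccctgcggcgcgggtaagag
The window has a GC content of 73.7% and a ratio of observed to expected CpG of 0.818. Across promoters in the table, the share with a CpG ratio over 0.6 was 59.5% for higher genes and 56.1% for lower genes, against 72.2% for genes not called.

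Fibroblast and mesenchymal genes, the cells' origin, had 5 higher and 1 lower among 23 tested (26.1% called, beside 10.1% of all tested genes). Fbn1, which encodes the extracellular matrix protein fibrillin-1, rose in KO from 6.91 and 24.7 to 31.2 and 119 CPM with WT at 13.2 and 35.5 and then 15.2 and 36.6 CPM (difference 2.10, SE 0.21). Cdh2, N-cadherin, rose from 53.3 and 117 to 88.9 and 233 CPM in KO and fell from 64.9 and 115 to 41.5 and 74.9 CPM in WT (difference 1.52, SE 0.19). Within each letter, KO at day 2 held the highest Fbn1 and Cdh2 levels. The mesenchymal transcription factor gene Prrx1 was higher at up to 5.2 CPM (1.38, SE 0.32; lost without WT day 2 A, WT day 0 B, WT day 2 B or KO day 0 B), Thy1 rose in KO from 0 to at most 0.385 CPM (called in 3 of the 8 fits that left out 1 library) and Col3a1 from 0 to 1.89 and 7.58 CPM (lost without WT day 0 B or KO day 0 B). Vim, the intermediate filament gene that marks mesenchymal cells, had a difference of 0.40 (SE 0.18, not called) and Fn1 one of 0.37 (SE 0.23, not called). Summed over the 26 list members the level in letters A and B was 2739.7 and 4689.5 CPM in WT at day 0, 2735 and 5514 CPM in WT at day 2, 2288 and 4414 CPM in KO at day 0, and 2672 and 6668 CPM in KO at day 2. In such bulk RNA a larger share of cells of one kind and more RNA per cell cannot be told apart. The list's median difference was 0.37, or 0.10 with members that had a group at 0 counts set at their bound. Without KO day 0 B 2 members were higher, and 3 without WT day 2 A, WT day 0 B or WT day 2 B.

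Of 17 epithelial junction and keratin genes tested, 13 rose in WT and 7 in KO, with 1 higher and 2 lower for the interaction. Over all tested genes, 17.1% rose in WT and 17.4% in KO, and 10.1% were called for the interaction, beside 17.6% of this list. Cdh1, E-cadherin, rose from 50.9 and 86.1 to 237 and 455 CPM in WT and from 5.04 and 9.45 to 17.8 and 41.7 CPM in KO. All KO libraries were below all WT libraries, and the log2 changes were 2.31 in WT and 2.00 in KO (difference -0.31, SE 0.18, not called). The tight junction gene Cldn3 rose less in KO, from 6.28 and 15.0 to 9.55 and 25.6 CPM against 6.07 and 9.34 to 18.3 and 35.4 CPM in WT (difference -1.06, SE 0.23; lost without WT day 0 B or KO day 0 B), and the splicing regulator gene Esrp1 was the higher member (0.53; called in 0 of the 8 fits that left out 1 library). Of 12 stratified epithelium genes 0 were called in either direction. The list's 19 members summed to between 1106 and 2984 CPM in the 8 libraries, with Ivl alone at 0 in all. Of 12 trophectoderm genes, 10 rose in WT and 3 in KO, beside 17.1% and 17.4% of all tested genes. Gata2, a transcription factor of trophoblast and blood progenitors, rose from 2.26 and 3.24 to 13.4 and 19.4 CPM in WT and stood at 0.768 and 0.788 and then 0.409 and 0.578 CPM in KO (difference -3.23, SE 0.41, FDR 1.26e-04), and was the 1 lower member. Eomes was the 1 higher member (1.34; called in 2 of the 8 fits that left out 1 library).

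Neural genes had 5 higher and 0 lower among 11 tested (45.5% called, beside 10.1% of all tested genes), with a median difference of 0.69. Sox1, the earliest transcription factor of the neural plate, rose in both genotypes, from 29.6 and 32.8 to 49.2 and 48.2 CPM in WT and from 40.8 and 48.2 to 125 and 119 CPM in KO (difference 0.81, SE 0.15). Nes, the intermediate filament nestin, rose in KO from 81.2 and 182 to 134 and 359 CPM and fell in WT from 149 and 262 to 109 and 184 CPM (difference 1.34, SE 0.21). In each letter Nes was lowest in KO at day 0, and its highest value was in WT at day 0 in letter A and in KO at day 2 in letter B. Mtap2, which encodes the neuronal microtubule protein MAP2, rose from 2.25 and 2.02 to 16.6 and 17.6 CPM in KO and from 26.1 and 26.4 to 38.9 and 33.9 CPM in WT (difference 2.53, SE 0.19). Sox11 fell in WT with no call in KO (difference 0.83, SE 0.16), and Zic1, at 4.58 CPM or less, was the fifth (2.13, SE 0.44; lost without KO day 0 B). Pax6 and Dcx, later neural markers, lay under 1 CPM in every library, and Tubb3 had a difference of 0.04 (SE 0.31, not called). The list's summed level over 14 members was 505 and 747 CPM in WT at day 0, 443 and 588 in WT at day 2, 370.2 and 587 in KO at day 0, and 608 and 1020.4 CPM in KO at day 2.

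Imprinted genes, expressed from 1 parental allele, had 3 higher and 2 lower among 17 tested, with Igf2 described above as the first of the lower ones. The called share was 29.4%, beside 10.1% of all tested genes. Peg10, a retrotransposon-derived gene expressed from the paternal allele, stood at 549 and 739 CPM in WT at day 0 and 1877 and 1769 CPM at day 2, and at 13.5 and 19.8 and then 362 and 396 CPM in KO. All KO libraries lay below all WT libraries, and both genotypes rose (log2 1.52 in WT and 4.52 in KO, difference 3.0, SE 0.22, FDR 1.07e-06). Peg10 headed a run of 4 tested neighbours called higher on chromosome 6, with Ppp1r9a (0.94; lost without WT day 2 B or KO day 2 B), Pon3 (4.92) and Pon2 (1.55, SE 0.19), whereas Sgce, which shares the imprinted domain and starts beside Peg10, had a difference of 0.04 (SE 0.26, not called). Plagl1, an imprinted zinc finger gene, rose from 0.0959 and 0.197 to 3.42 and 4.95 CPM in KO and from 2.22 and 4.47 to 4.78 and 7.72 CPM in WT (difference 3.88, SE 0.44). Mest was the third higher gene (0.85, SE 0.20; lost without WT day 2 B, KO day 0 B or KO day 2 B). Cdkn1c, a cell cycle inhibitor gene, rose in WT from 3.37 and 1.72 to 5.82 and 3.38 CPM and fell in KO from 5.997 and 4.09 to 3.73 and 2.95 CPM (difference -1.44, SE 0.29).

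Chromatin lists had called shares of 5.88% (H3K9 methylation) and 8.33% (DNA methylation and TET), beside 10.1% over all tested genes. Of 17 H3K9 methylation genes tested, Kdm3b alone was called, and the writers Ehmt1, Ehmt2 and Setdb1 had differences of 0.09, 0.02 and -0.03 with SEs of 0.15, 0.16 and 0.16. Of 12 DNA methylation and TET genes, Gadd45a alone was called, with a rise from 13.4 and 17.6 to 46.5 and 41.7 CPM in KO and from 20.1 and 20.3 to 29.8 and 30.8 CPM in WT (difference 0.93, SE 0.18), and Tet1, Tet2 and Tet3 were not called. Only 3 of 20 germline genes had enough counts to be tested, and Tdrkh, of the piRNA pathway, was the 1 called, falling less in KO (1.33, SE 0.16). Of 3 tested two-cell-stage genes 0 were called in either direction.

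Of 18 hypoxia and glycolysis genes, 2 were higher and 4 lower (33.3%, beside 10.1% over all tested genes). Eno1, a glycolytic enolase gene with which near-identical copies may share reads, fell in WT from 2270.5 and 1097 to 1164 and 546 CPM and held 2173 and 878 and then 2140.5 and 873 CPM in KO (difference 0.97, SE 0.19; lost without KO day 0 B), and Vegfa, the angiogenic growth factor, fell in WT and rose in KO (0.73, SE 0.15). Ndrg1 (-1.13, SE 0.15), Egln3 (-0.90, SE 0.14), Ankrd37 (-0.88, SE 0.17) and Bnip3 (-0.58; called in 3 of the 8 fits that left out 1 library) were the lower ones. All 6 called members are known targets of hypoxia-inducible factors, which the choice of the list favours. The calls went in both directions, and the list's median difference was -0.06. Of 15 interferon response genes 3 were lower (20%, beside 10.1% of all tested genes called), namely Oas1a (-1.64, SE 0.23), Oas2 (0 in KO at day 2; lost without KO day 0 B or KO day 2 B) and Irf7 (-2.28; called in 1 of the 8 fits that left out 1 library). Oas1a reads may be shared with near-identical copies. Of 19 cholesterol synthesis genes 2 were lower, Insig1 (-0.58; lost without WT day 0 B, WT day 2 B, KO day 0 A or KO day 0 B) and Fdps (-0.48; called in 1 of the 8 fits that left out 1 library). Their share of the list, 10.5%, was close to the 10.1% called over all tested genes. Among 18 ATF4 and stress genes 2 were higher (11.1%, also close to the share over all tested genes), Trib3 (0.87; lost without WT day 2 A, WT day 0 B or KO day 0 A) and Phgdh (0.56; called in 1 of the 8 fits that left out 1 library). Of 22 cell cycle genes, 16 fell in WT and 14 in KO, beside 16.9% and 16.1% of all tested genes. Ccne2, encoding cyclin E2, was the 1 called (0.74, SE 0.15), which is 4.55% of the list. Of 15 CDK inhibitor and p53 genes, Cdkn1c alone was called (6.67%).

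Immune markers summed to between 9.999 and 19.999 CPM in the 8 libraries, with Emr1 among the members at 0 in all, and of 3 tested 0 were called. Endothelial markers summed to between 25.2 and 94.1 CPM, with Emcn at 0 in all, and of 5 tested 0 were called. Over all tested genes 10.1% were called, so that 0 calls among so few markers say little.

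The X chromosome had a larger share of higher calls than the autosomes. Of 450 X-linked genes tested, 57 (12.7%) were higher and 9 (2%) lower, against 762 (5.96%) and 506 (3.96%) of 12790 autosomal genes. The median X-linked difference was 0.12, or 0.06 in letter A and 0.16 in letter B. Medians of X-linked genes set against the mean of the WT day 0 libraries were -0.05 and -0.15 in the KO day 0 libraries and 0.07 and -0.01 in the KO day 2 libraries, against -0.01 and 0.01 in WT at day 0 and 0.10 and -0.03 in WT at day 2. In letter A the X-linked median was higher at day 2 than at day 0 in WT as well. A count of 57 became 36 without WT day 2 B and 37 without KO day 0 A. Besides Armcx2, the neighbouring Armcx3 rose from 1.44 and 1.13 to 12.8 and 15.7 CPM in KO and from 10.7 and 10.5 to 25.1 and 27.1 CPM in WT (difference 2.16, SE 0.24), and Armcx6 had a difference of 2.13 (SE 0.34). Armcx1 and Armcx5 of the same family were not called (0.03, SE 0.14, and -0.37, SE 0.21). Pim2, a survival kinase gene, went from 21.9 and 28.0 to 211 and 176 CPM in KO and from 136 and 108 to 257 and 220.1 CPM in WT (difference 1.97, SE 0.20), so that KO started lowest and at day 2 lay between the WT levels of day 0 and day 2. Gpc4, a glypican gene, fell in WT from 64.4 and 95.7 to 37.8 and 68.1 CPM and rose in KO from 27.8 and 68.1 to 53.7 and 129 CPM (difference 1.57, SE 0.21). All 4 Y-linked genes tested were present in all 8 libraries, at 30.7 to 93.5 CPM.

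**Figure D5:**
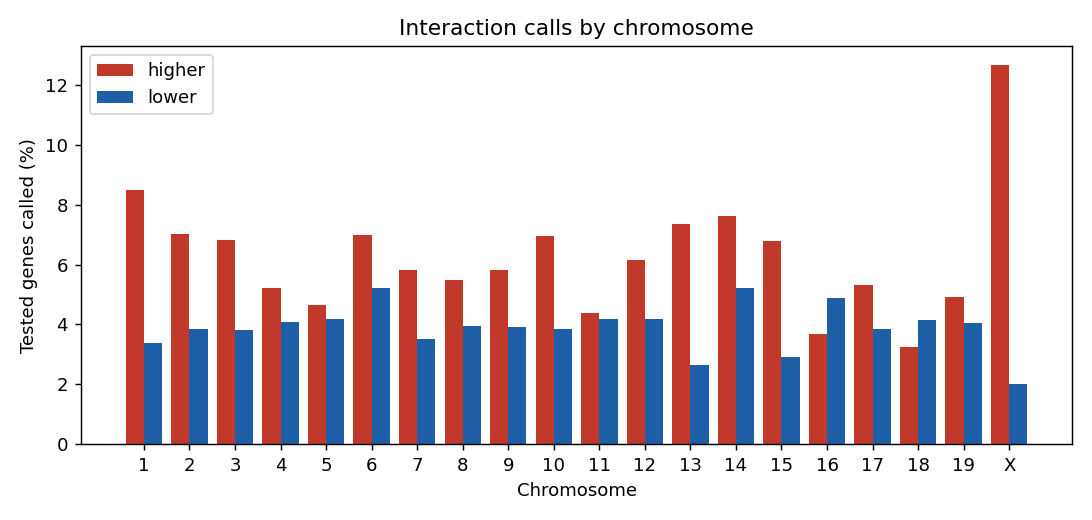
Percentage of the tested genes of each chromosome called higher (red) or lower (blue) for the interaction. The X chromosome has 12.7% higher calls and 2% lower calls.

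Chromosome 5 differed between genotypes at both days without differing in its change. Its genes had a median of 0.33 to 0.41 log2 above the WT day 0 mean in each of the 4 KO libraries, against -0.05 to 0.05 in the WT libraries. The median difference of changes on chromosome 5 was -0.01. Whether this offset reflects gene dosage was not tested.

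A difference of changes can arise from unequal starts as well as from unequal ends. The starting levels were therefore set beside it, as a description from the same libraries. The gaps between KO and WT at day 0 and at day 2 are themselves the terms of this difference. The calls therefore favour higher genes that start below WT in KO and lower genes that start above it. Of the 820 higher genes, 446 (54.4%) were below WT in KO at day 0 and 138 (16.8%) above, whereas 14.3% of the genes not called were below. Over all tested genes KO and WT differed in 34% at day 0 (16.9% above and 17.1% below in KO) and in 40.4% at day 2 (20.8% above and 19.6% below). By day 2, 191 of those 446 were no longer called different from WT, 156 were still below and 99 had moved above. A further 233 higher genes did not differ at day 0 and stood above WT at day 2. Over all 820, the median level in KO against WT went from -0.58 to 0.60 log2. Of the 516 lower genes, 199 did not differ at day 0 and were below WT at day 2, 117 were already below, 108 went from above WT to no difference, 54 crossed from above to below and 32 stayed above. The median of the 516 went from 0.20 to -0.81 log2.

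The day 10 libraries, 2 WT and 2 KO, did not enter the interaction and allow the called genes to be followed further, by a separate fit in which 8554 of 13734 genes differed between KO and WT (62.3%, with 29.3% above and 33% below in KO). Of 800 higher genes tested there, 371 (46.4%) were above WT in KO and 224 (28%) below. Of 501 lower genes, 246 (49.1%) were below and 116 (23.2%) above. Over all 12833 genes tested in both fits, 31.2% were above and 28.7% below. Igf2 was still below WT in KO at day 10 (log2 -2.09, FDR 9.97e-07), as were Lgals9 (-3.98, FDR 5.45e-07), Alox15 (-4.04, FDR 8.84e-06) and Alpl (-3.17, FDR 5.98e-07). Sox1 (3.65, FDR 3.02e-07), Necab1 (3.70, FDR 5.39e-07) and Cdh2 (4.14, FDR 8.42e-07) were above WT. Other lower genes named above were above WT in KO at day 10, among them S100a3 (2.55, FDR 1.10e-04), Chst1 (1.14, FDR 0.00165) and S100a6 (0.99, FDR 3.07e-05). Some higher genes were below WT in KO at day 10. Tdgf1 was below (-3.00, FDR 3.02e-06), as were Tcfcp2l1 (-1.17, FDR 2.45e-05), Col4a1 (-1.17, FDR 8.30e-05) and Plagl1 (-4.15, FDR 1.36e-06). For Tdgf1 and Tcfcp2l1 the KO level had been below WT at day 2 as well, while Col4a1 had been above it.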

How the data were processed

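The 13 RNA-seq libraries are single-end. The submitters' processing notes name Bowtie2, RSEM and the build mm9, without versions. The deposited values are RSEM expected counts per gene, which divide reads that fit several transcripts. In the 8 libraries 38.6% to 43.8% of the values were not whole within a tolerance of 0.005. TPM values deposited by the authors were set beside the counts and enter no result. The 20325 genes carry mRNA accessions, and noncoding genes are not analysed here.

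Expected counts were rounded and tested with edgeR 4.0.16 (quasi-likelihood test) in R 4.3.3, with filterByExpr, TMM factors and the model group plus letter over the 8 libraries, leaving 3 residual degrees of freedom. Retained genes held at least 99.96% of each library's counts, and the common biological coefficient of variation was 0.0867. FDR is the Benjamini-Hochberg adjusted p over all 13277 genes. Log2 CPM values used a prior count of 2, and fitted log2 values the default prior count of edgeR's fit. Each SE was derived from the test, as the absolute fitted log2 value divided by the square root of its F statistic. It is therefore approximate, above all for genes with few counts. The letters pair the libraries by the data: deviations of B from A correlated between 0.788 and 0.841 over the 6 pairs of groups, and over genes the letter effect had a Spearman's rho of 0.464 with transcript length. Day 10 was fitted separately on 4 libraries.

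The comparison, the 24 gene lists (412 of 419 entries in the files) and the tests were chosen with earlier results of these data known. Named genes are Kdm3b, the 15 largest differences in each direction at 5 CPM or more, up to 4 called members a list by FDR, 5 genes of each class of WT and KO change by FDR and a few defining members. Genes with 0 counts in 1 genotype, members of runs of neighbours and X-linked families were named after their values were seen, as were further list members. Alternatives were RLE factors, no scaling, other filters, no block, DESeq2 1.42.0, limma-voom 3.58.1, all 12 pre-iPSC libraries and each library left out. A block within each genotype and TMM factors from autosomes without chromosome 5 were alternatives chosen after seeing the data. Simulated counts with known changes were used to test the script. Promoter sequences, chromosomes and neighbours come from RefSeq (GRCm38.p6), while the deposited counts use mm9. Genes were matched to RefSeq by transcript accession, or by symbol where no accession matched. Promoters and neighbours were then found by the RefSeq symbol.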

Additional observations from a re-analysis of the deposited data

Results flagged for a closer look

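The change from day 0 to day 2 differed between KO and WT by the test of the difference itself for 820 genes in the higher direction and 516 in the lower direction. The naming rule took 10 genes from the classes with opposite calls in the 2 genotypes. Lower were Igf2 at -3.42, Lgals9 at -3.55, Chst1 at -3.53, Tdh at -1.65 and Lpin1 at -1.27 on the log2 scale. Higher were Pex5l at 8.56, Ror1 at 5.38, Rgs8 at 4.45, Pcx at 2.02 and Atf5 at 1.87. Pex5l had 0 and 0.0492 CPM in KO at day 0, so that its size is uncertain.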

How the results depend on the processing

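Without the replicate block, which ignores the pairing by letter, 0 genes were called for the interaction (0 higher and 0 lower; 708 at an unadjusted p under 0.05), 283 for WT and 459 for KO. With a replicate block within each genotype, 2454 were called (1443 higher and 1011 lower), including all 1336. Other settings gave 1099 (DESeq2) to 1643 calls (no filter on low counts), and higher genes made up 55.7% of the calls by DESeq2 against 61.4% as reported. Leaving out 1 library each gave 796 to 1464 calls for the interaction, 436 to 884 higher, 253 to 580 lower, 2753 to 5190 for WT and 2603 to 4614 for KO, and 6821 to 8231 for KO against WT at day 10, which was 8408 with a replicate block. The interaction fell furthest without WT day 2 B (796) and without KO day 0 A or KO day 0 B (818 each), the higher calls to 436 without WT day 2 B and 502 without KO day 0 A, and the lower calls to 253 without KO day 0 B and 316 without KO day 0 A. Calls for WT fell to 2999 when the day 2 library of letter A was left out, to 2753 when the day 0 library of letter B was, and to 2956 when the day 2 library of letter B was. Calls for KO fell to 2603 when its day 0 library of letter A was left out and to 2803 when that of letter B was. Where a library is left out, the lone sample of its group is assumed to vary like the others. The sign of the 1336 genes was the same in every setting in which they were present, apart from 1 gene without WT day 2 A. Of 151 called genes followed by name, 104 were called in all 8 fits that left out 1 library. Depth limits 55 of the called genes, which held 3 counts or fewer summed over the libraries of a group.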

Other observations

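Runs of neighbouring tested genes called in the same direction were seen beyond those in the comparison. On chromosome 8, Ido2, Ido1, Adam5 and Adam32 were lower. Ido2, an enzyme of tryptophan breakdown, rose in WT from 0.119 and 0.246 to 4.08 and 6.798 CPM and lay at 0.240 and 0.345 and then 0.0511 and 0.193 CPM in KO, and Ido1 rose in WT from 0.436 and 0.688 to 2.24 and 1.80 CPM with 0.720 and 0.591 and then 0.460 and 0.385 CPM in KO (Ido1 lost without WT day 2 A or KO day 0 A, Adam5 called in 0 of the 8 fits that left out 1 library, Adam32 lost without WT day 2 A or KO day 0 B). On chromosome 13, Epdr1, Sfrp4, Elmo1 and Aoah were higher. Elmo1, which promotes cell engulfment, fell in WT from 71.5 and 82.3 to 51.1 and 50.5 CPM and lay at 8.16 and 7.44 and then 11.2 and 8.61 CPM in KO, and Sfrp4, a secreted Wnt inhibitor gene, rose in KO from 0.0480 and 0.246 to 1.69 and 2.57 CPM (Epdr1 called in 2 of the 8 fits that left out 1 library).

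Amd1, an enzyme gene of polyamine synthesis, lay at 0.0995 CPM or less in the 4 A libraries. The B libraries held 25.9 CPM in WT at day 0, 23.1 in WT at day 2, 54.1 in KO at day 0 and 0.0642 CPM in KO at day 2. Its fitted difference of -9.29 was among the largest and rests on that 1 library, since without KO day 2 B it was -4.32 and not called. The copy Amd2 stood between 94.9 and 271 CPM in all 8 libraries. How the counting divided reads between the 2 copies was not tested.

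Serpina3m and Serpina3n, neighbouring members of a protease inhibitor cluster, were both lower but from different changes. Serpina3m rose in WT from 0.238 and 0.344 to 15.4 and 11.8 CPM (KO 0.672 and 0.739 and then 0.204 and 0.514), and Serpina3n fell in KO from 12.4 and 18.4 to 0.153 and 0.578 CPM (WT 2.54 and 2.16 and then 0.946 and 1.71). Reads may be shared within the cluster.

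As a description, the median transcript length was 3509 bases for higher, 2861 for lower and 2751 for genes not called, and the median level was 15.4, 22.1 and 33.0 CPM in the same order.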
